A study of Mus musculus with 19 samples.

Results

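Il33, Il1rl1, Il6, Lif, Csf1 and Csf2rb encode 4 cytokines and 2 receptor chains of the cytokine network. Their messenger RNA was followed in myoblasts under endoplasmic reticulum stress. The 6 genes were chosen by name from the 55401 genes counted, with earlier results of these data known. All 6 were among the 18039 genes with enough counts to test. Shares of all genes called are given below for scale, and an excess of the 6 over them is no test of the set. Polyadenylated RNA came from C2C12, an established mouse myoblast line, labelled wild type and grown in medium with serum. All 19 bulk libraries come from that 1 line, so no other cell type or genetic background was compared. Cells received either DMSO, the vehicle, or 100 nM thapsigargin, an inhibitor of the SERCA calcium pump of the endoplasmic reticulum, for 2, 6 or 12 h. A recovery group received thapsigargin for 6 h and then drug-free medium for 48 h, and it has no vehicle group of its own age. Each group held 3 libraries, except both 12 h groups, which held 2. Separate cultures are not named in the labels, so the spread behind the p-values is that between libraries and may be partly technical.

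IL-33 is a member of the IL-1 family that is stored in the nucleus and signals through ST2, the product of Il1rl1, together with the shared chain IL-1RAcP. IL-6 and LIF are related cytokines that both signal through gp130, the product of Il6st, to JAK kinases and STAT3, and both are known as products of muscle cells that act on satellite cells. CSF-1 supports macrophages through its receptor Csf1r, and Csf2rb is the common beta chain of the receptors for GM-CSF, IL-3 and IL-5. Loss of calcium from the endoplasmic reticulum activates the unfolded protein response, whose transcription factors include ATF4, CHOP, ATF6 and XBP1.

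The stretches of promoter before the genes whose levels rose are shown first, with that of Il33, whose level fell, beside them. Each is the 250 bases before a RefSeq transcription start on GRCm38, 5′ to 3′ on the strand of the gene, and capitals mark matches to the motifs searched.
Lif, chr11:4257318-4257567, plus strand: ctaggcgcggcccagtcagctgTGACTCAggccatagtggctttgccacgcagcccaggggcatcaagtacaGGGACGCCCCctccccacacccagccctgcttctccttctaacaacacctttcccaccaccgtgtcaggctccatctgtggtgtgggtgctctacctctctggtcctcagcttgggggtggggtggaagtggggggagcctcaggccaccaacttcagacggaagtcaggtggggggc
Il6, chr5:30012864-30013113, plus strand: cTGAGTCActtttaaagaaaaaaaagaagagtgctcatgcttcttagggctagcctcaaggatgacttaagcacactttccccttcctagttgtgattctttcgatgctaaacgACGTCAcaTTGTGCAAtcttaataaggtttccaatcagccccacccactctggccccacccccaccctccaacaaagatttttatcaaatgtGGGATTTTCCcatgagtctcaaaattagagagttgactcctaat
Csf1, chr3:107760470-107760719, minus strand: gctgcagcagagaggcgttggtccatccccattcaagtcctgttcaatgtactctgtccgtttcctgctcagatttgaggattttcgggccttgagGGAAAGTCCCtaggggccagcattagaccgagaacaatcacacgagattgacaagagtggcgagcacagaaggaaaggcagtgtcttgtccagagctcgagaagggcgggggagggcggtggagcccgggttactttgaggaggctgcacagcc
Il33, first start, chr19:29924863-29925112, plus strand: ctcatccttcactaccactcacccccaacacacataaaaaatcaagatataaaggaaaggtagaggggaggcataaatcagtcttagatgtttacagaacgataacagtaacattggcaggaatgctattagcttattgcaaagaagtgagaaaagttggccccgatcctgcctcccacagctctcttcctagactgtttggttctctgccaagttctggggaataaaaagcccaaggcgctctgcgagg

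Both strands were searched for 6 motifs. They were the C/EBP-ATF element TGATGNAA, the CRE half-site TGACGT, the AP-1 site TGANTCA, the C/EBP site TTGCNNAA, the STAT site TTCNNNGAA and the consensus for NF-kB. Of 32851 promoter windows of the same length, 3.5% held the C/EBP-ATF element, 6.5% the CRE half-site, 6.7% the AP-1 site, 9.6% the C/EBP site, 7.0% the STAT site and 7.3% the NF-kB consensus. The Il6 window held 4 matches, counted back from the transcription start: AP-1 at -249 to -243, the CRE half-site at -136 to -131, C/EBP at -128 to -121 and NF-kB at -44 to -35. The Lif window held AP-1 at -228 to -222 and NF-kB at -178 to -169, and the Csf1 window held NF-kB at -154 to -145. The first start of Il33 held none, and its second start held C/EBP at -85 to -78. Il1rl1 held C/EBP at -34 to -27 before its first start and the CRE half-site at -34 to -29 before its second. These are matches of letters, not measured binding, and no window shown or described held the C/EBP-ATF element or the STAT site.

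**Figure D1:**
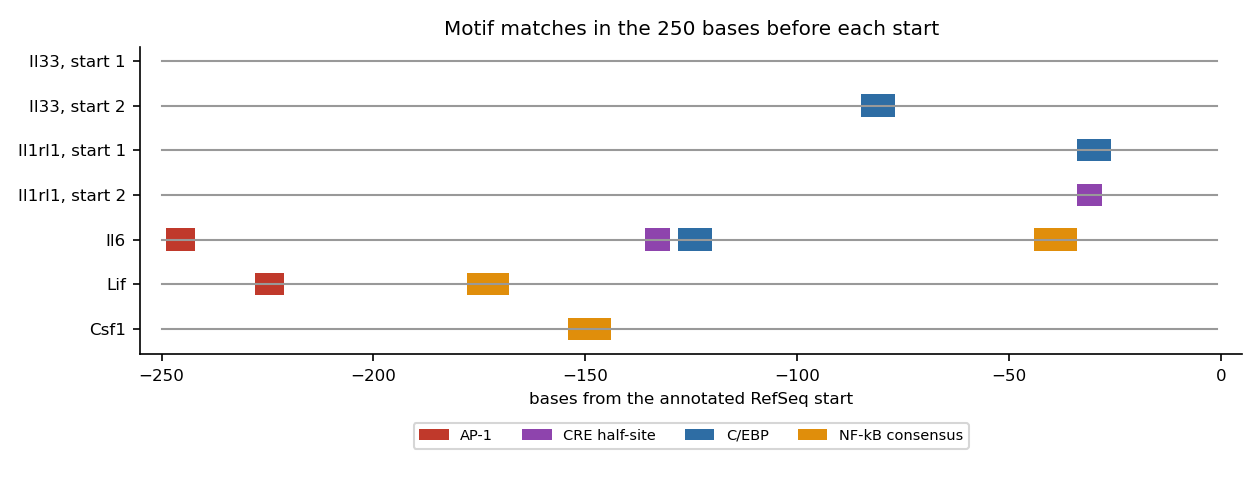
Positions of motif matches in the 250 bases before each RefSeq transcription start; the horizontal axis is the distance from the start in bases, each row is one start, and each coloured mark is one match. Il6 carries 4 matches, Lif 2 and Csf1 1.

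In the GENCODE M21 annotation of GRCm38, Il33 lies at chr19:29925114-29960718 on the plus strand and Il1rl1 at chr1:40429570-40465415 on the plus strand. Il6 lies at chr5:30013114-30019981 and Lif at chr11:4257557-4272514, both on the plus strand. Csf1 lies at chr3:107741048-107760469 on the minus strand and Csf2rb at chr15:78325752-78353847 on the plus strand. Counts were taken over whole genes, and no exon of 5 of the genes overlapped that of another gene. Exons of Csf2rb overlap the microRNA gene Mir7676-2. Csf2rb also has a close copy, Csf2rb2, at chr15:78282507-78305721. The 2 transcripts shared 18.4% of their windows of 50 bases and 7.0% of their windows of 100 bases, so reads from the shared stretches may have been split or dropped, and the values of both are uncertain to that extent.

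The libraries held 17305962 to 40964140 reads assigned to genes, with the fewest in the 12 h groups. Mitochondrially encoded genes took 15.8% of the gene reads in replicate 3 of the 2 h vehicle group and 14.89% in replicate 1 of the recovery group, against 1.41 to 3.07% in the other 17 libraries. Each gene was also set against its own mean over the 19 libraries, and the deviations of long and short transcripts were compared. On that relative scale, long minus short was 0.44 to 1.16 (log2) in the 2 h and 12 h libraries. It was -1.59 to -0.09 in the 6 h and recovery libraries. All 6 myoblast markers had counts in every group, with a summed level of 554 to 5010 CPM by library. They moved with the groups. At 6 h of drug 1 was higher (Myf5) and 3 lower (Msc, Pax7 and Cdh15), where 13% of all genes were called higher and 8.79% lower. At 12 h 1 was higher (Myf5) and 2 lower (Msc and Myod1), against 6.29% and 6.77% of all genes. At 2 h none passed. The part of these markers in the results was not tested. The summed level of the 7 macrophage markers was 2.43 to 11.3 CPM, most of it Cd68, and Adgre1 was at 0 in all 19 libraries. The summed level of 8 mast and other blood cell markers was 0.0234 to 1.17 CPM, and Cpa3 and Fcer1a were at 0 in all 19. The 5 epithelial markers summed to 14.1 to 25.2 CPM in the 6 h drug libraries and 0.461 to 6.2 CPM in all other groups. The 5 endothelial markers summed to 2.64 to 4.79 CPM in the 6 h drug libraries and 0.514 to 2.19 CPM elsewhere. At 12 h that endothelial sum was 2.17 to 2.19 CPM with drug and 0.527 to 0.83 CPM in vehicle. At 6 h of drug, 3 of 4 testable epithelial markers and 3 of 3 testable endothelial markers were called higher, against 13% of all genes. Whether these markers would have had enough counts to test without the drug libraries was not examined, so these calls are weak support for a rise. At 12 h of drug 1 gene of each list was called higher, Esrp1 and Tek, against 6.29% of all genes. The part of either list in the 6 h and 12 h results was not tested. In bulk RNA, fewer cells of a type and less RNA per cell cannot be told apart.

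Levels are given in CPM, the usual per-million scale of read counts relative to library size, after TMM scaling, in the order of replicates 1, 2 and 3. Differences are log2 fold changes with their standard error from edgeR's quasi-likelihood test, and adjusted p is by the Benjamini-Hochberg method over all 18039 genes, with 0.05 as the threshold. A gene is said to have risen or fallen only where it passed that threshold.

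**Figure D2:**
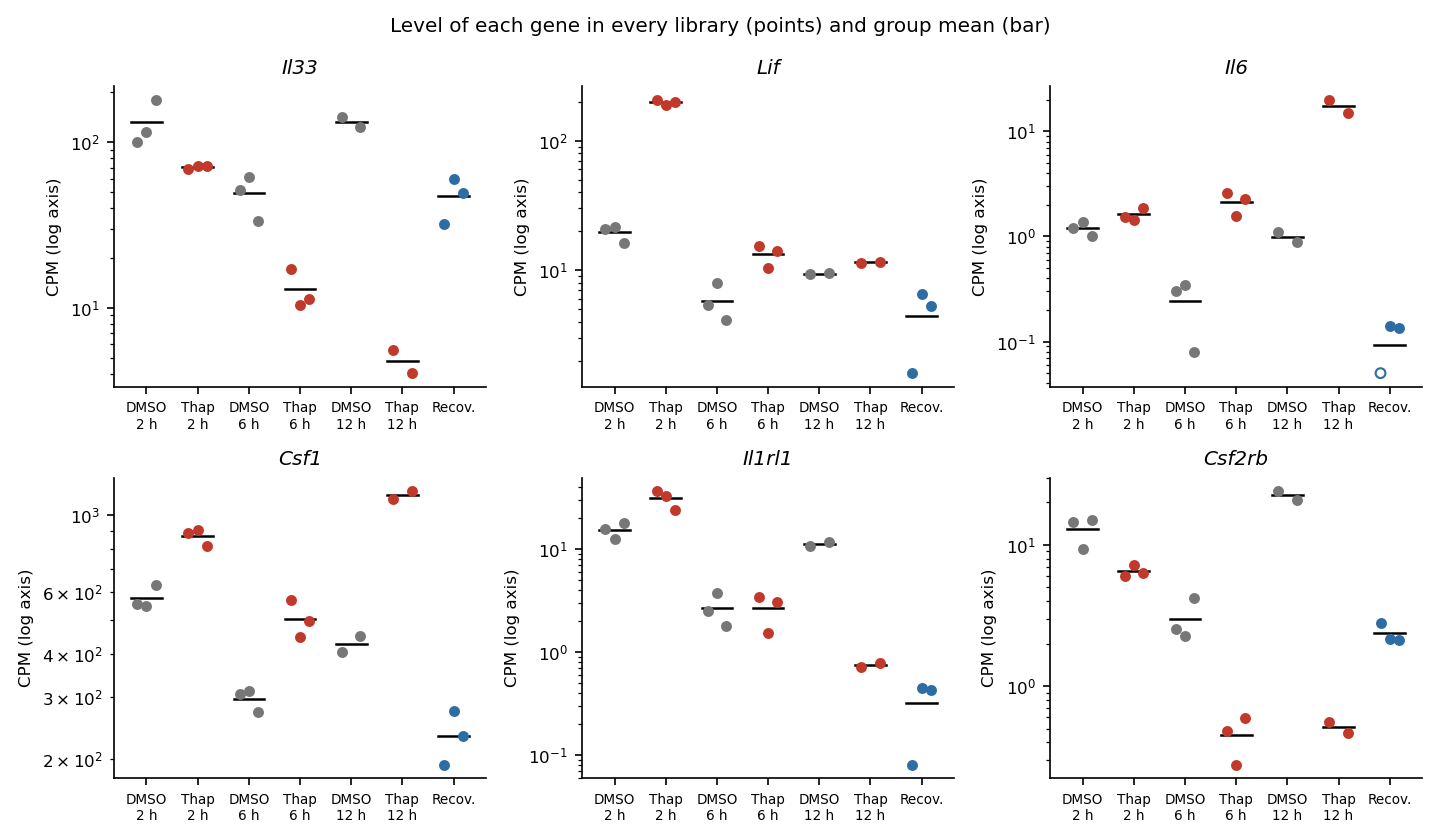
Levels of the 6 genes in every library, in CPM on a log axis, by group along the horizontal axis; each point is 1 library and each bar is the mean of its group (grey vehicle, red drug, blue recovery). The open point for Il6 is the recovery library with 0 reads, drawn near the bottom of the axis. Lif stands highest in the 2 h drug libraries, Il6 and Csf1 in the 12 h drug libraries, and Il33 and Csf2rb lie below vehicle in the drug groups at each time.

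Lif, the ligand of the LIF receptor, rose early and by 10.1-fold. Its level was 20.95, 21.5 and 16.2 CPM in vehicle at 2 h, and 207, 188 and 200 CPM after 2 h of thapsigargin. The drug libraries stood far above the vehicle libraries with no overlap, a log2 difference of 3.34 ± 0.37 (adjusted p = 6.13e-05, edgeR). At 6 h the level was 5.37, 8.03 and 4.11 CPM in vehicle and 15.5, 10.4 and 14.1 CPM with drug. That was a rise of 2.28-fold (log2 1.19 ± 0.35, adjusted p = 0.0215, edgeR), again without overlap. The 6 h call was lost without any one of vehicle replicates 1 and 3 or drug replicates 1 and 3, where the adjusted p was 0.059 to 0.0911. At 12 h the level was 9.32 and 9.55 CPM in vehicle and 11.4 and 11.7 CPM with drug. Both drug libraries were above both vehicle libraries, but the difference did not pass the test (log2 0.29 ± 0.42, adjusted p = 0.792, edgeR). Over all 7 groups the 2 h drug group came first at 198 ± 9.40 CPM (SD, n = 3) and recovery came last, at 4.48 ± 2.57 CPM (SD, n = 3), overlapping the 6 h vehicle group.

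Il6, which encodes the pleiotropic cytokine IL-6, was scarce in vehicle and rose late. At 2 h its level was 1.21, 1.36 and 1.01 CPM in vehicle and 1.53, 1.44 and 1.88 CPM with drug. The drug libraries were all above the vehicle libraries, by a difference that did not pass the test (log2 0.44 ± 0.38, adjusted p = 0.66, edgeR). At 6 h the vehicle libraries held 10, 11 and 2 reads of Il6, or 0.305, 0.343 and 0.0791 CPM, and the drug libraries stood at 2.6, 1.56 and 2.27 CPM. Il6 rose 8.52-fold at that time, without overlap (log2 3.09 ± 0.44, adjusted p = 0.000113, edgeR). The third vehicle library was below the floor of 3 reads, so the 6 h fold rests on few reads. At 12 h the level was 1.09 and 0.876 CPM in vehicle and 20.03 and 15.0 CPM with drug. That was the highest of the 7 groups, at 17.5 ± 3.54 CPM (SD, n = 2), and a rise of 17.7-fold (log2 4.14 ± 0.52, adjusted p = 5.63e-05, edgeR).

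Csf1, the growth factor of macrophages and their precursors, was the most abundant of the 6 genes and rose by smaller folds. Its level at 2 h was 556, 546 and 629 CPM in vehicle and 888, 902 and 812 CPM with drug. The groups did not overlap, but the difference did not pass the test (log2 0.59 ± 0.17, adjusted p = 0.0679, edgeR). At 6 h the level was 306, 312 and 271 CPM in vehicle and 569, 445 and 496 CPM with drug, a rise of 1.70-fold without overlap (log2 0.76 ± 0.17, adjusted p = 0.00448, edgeR). That call was lost with scaling by total counts (adjusted p = 0.0624) and with no filter on low counts (adjusted p = 0.0752). At 12 h the level was 403 and 450 CPM in vehicle and 1110 and 1170 CPM with drug. The 12 h rise was 2.67-fold (log2 1.42 ± 0.22, adjusted p = 0.000301, edgeR), and the 12 h drug libraries stood above all others.

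Il33, which encodes the nuclear alarmin IL-33, went the other way. At 2 h its level was 101, 116 and 181 CPM in vehicle and 68.7, 71.5 and 71.6 CPM with drug. The drug libraries lay below all vehicle libraries, by a difference that did not pass the test (log2 -0.91 ± 0.29, adjusted p = 0.0948, edgeR). The highest vehicle value came from the library with 15.8% mitochondrial reads. At 6 h the level was 51.8, 62.1 and 33.6 CPM in vehicle and 17.2, 10.5 and 11.3 CPM with drug, 3.79-fold lower (log2 -1.92 ± 0.30, adjusted p = 0.000242, edgeR). At 12 h it was 142 and 124 CPM in vehicle and 5.55 and 4.02 CPM with drug, 27.8-fold lower (log2 -4.80 ± 0.42, adjusted p = 1.53e-06, edgeR). Drug and vehicle libraries did not overlap at either of those times. The 12 h drug group was the lowest of the 7, at 4.79 ± 1.08 CPM (SD, n = 2), and its range was apart from that of the 6 h drug group.

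Il1rl1, the gene of the IL-33 receptor ST2, fell only in the 12 h comparison. Its level at 2 h was 15.6, 12.4 and 17.8 CPM in vehicle and 36.3, 32.7 and 24.0 CPM with drug. All drug libraries were higher, with a fold of 2.03 that did not pass the test (log2 1.02 ± 0.34, adjusted p = 0.115, edgeR). At 6 h the level was 2.47, 3.71 and 1.78 CPM in vehicle and 3.43, 1.53 and 3.03 CPM with drug. The groups overlapped, and the difference was log2 0.01 ± 0.35 (adjusted p = 0.995, edgeR), with a sign that turned when single libraries were left out. At 12 h the level was 10.6 and 11.8 CPM in vehicle and 0.713 and 0.786 CPM with drug. Il1rl1 fell 14.8-fold at that time, without overlap (log2 -3.89 ± 0.50, adjusted p = 6.62e-05, edgeR).

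Csf2rb, the common beta chain, gave the largest fold among the 6 genes at 12 h. At 2 h its level was 14.6, 9.42 and 15.1 CPM in vehicle and 5.98, 7.22 and 6.32 CPM with drug. The drug libraries were all lower, and the difference missed the threshold (log2 -1.0 ± 0.28, adjusted p = 0.0508, edgeR). At 6 h the level was 2.53, 2.27 and 4.23 CPM in vehicle and 0.479, 0.278 and 0.595 CPM with drug. Csf2rb fell 6.55-fold there (log2 -2.71 ± 0.32, adjusted p = 1.73e-05, edgeR), with the groups apart. At 12 h the level was 24.0 and 20.9 CPM in vehicle and 0.561 and 0.462 CPM with drug, from 11 and 10 reads, 43.7-fold lower (log2 -5.45 ± 0.43, adjusted p = 6.92e-07, edgeR). The mean level of the copy Csf2rb2 was 0.199 CPM in vehicle and 0.771 CPM with drug at 6 h. That was a rise of log2 1.94 ± 0.64 (adjusted p = 0.0392, edgeR). It rests on few reads, 11, 2 and 5 in the vehicle libraries at 6 h. At 12 h Csf2rb2 was at 2.22 CPM in vehicle and 0.574 CPM with drug, which did not pass the test (adjusted p = 0.102, edgeR). The summed level of the macrophage markers lay between 2.43 and 3.07 CPM in the 2 h drug libraries against 3.81 to 11.3 CPM in vehicle, between 4.26 and 5.9 against 6.88 to 11.1 at 6 h, and between 3.52 and 4.07 against 5.15 to 5.4 at 12 h. Most of that sum was Cd68, and of the 4 genes of the list that were testable Lyz2 alone was called in a drug comparison, higher at 6 h by log2 2.58 ± 0.77 (adjusted p = 0.0232, edgeR), from a mean of 0.0744 to 0.476 CPM. Adgre1 and Itgam were at 0 in every library, and the part of the list in the change of Csf2rb was not tested.

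On the scale of CPM per kilobase of the longest transcript, which allows levels of different genes to be compared, the vehicle cells at 2 h ranked Csf1 first at 138, then Il33 at 52.1, Lif at 4.86, Il1rl1 at 2.88, Csf2rb at 2.66 and Il6 at 0.509. After 12 h of drug the order was Csf1 at 273, Il6 at 7.48, Lif at 2.86, Il33 at 1.88, Il1rl1 at 0.141 and Csf2rb at 0.104. Il6 thus stood last of the 6 in vehicle at 2 h and in the second place after 12 h of thapsigargin.

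Counted over the 6 genes, the 2 h comparison called 1 higher (Lif) and 0 lower, where 3.01% of the 18039 genes tested were called higher and 1.51% lower. At 6 h, 3 were called higher (Il6, Lif and Csf1) and 2 lower (Il33 and Csf2rb), against 13% and 8.79% of all genes. At 12 h, 2 were called higher (Il6 and Csf1) and 3 lower (Il33, Il1rl1 and Csf2rb), against 6.29% and 6.77% of all genes. The median log2 difference of the 6 genes was 0.51, 0.39 and -1.80 at 2, 6 and 12 h, beside -0.04, 0.01 and 0.01 over all genes. All 5 calls at 12 h held in each alternative run there, also with either library of a group left out. At 2 h the number called was the least stable: it ran from 1 to 5 over the alternatives, and DESeq2 called 5.

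**Figure D3:**
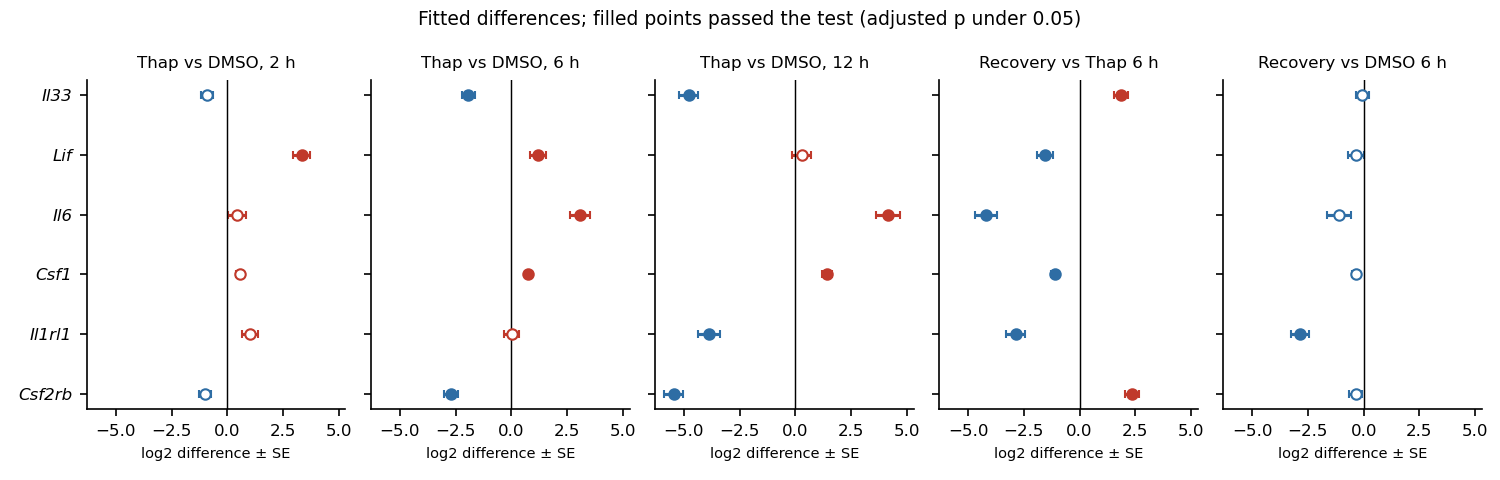
Log2 difference of each gene in the 3 drug comparisons and the 2 recovery comparisons; points are estimates from edgeR, bars are standard errors, red is higher and blue lower, and filled points passed the adjusted p threshold of 0.05. Lif has its largest difference at 2 h, while Il33, Il1rl1 and Csf2rb reach theirs at 12 h.

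Whether the response to drug differed between times was tested as the difference of the log2 differences; the 2 tests share the 6 h libraries. Between 2 and 6 h, 3 of the 6 genes passed, where 3.99% of all genes were called in either direction. The Il6 response was larger at 6 h by 2.65 ± 0.58 (adjusted p = 0.0152, edgeR). The Lif response was smaller by -2.15 ± 0.49 (adjusted p = 0.0188, edgeR), and the fall of Csf2rb was deeper by -1.71 ± 0.41 (adjusted p = 0.0281, edgeR). Each of these 3 calls was lost when some single libraries were left out. For Il6 this was drug replicate 2 at 2 h (adjusted p = 0.051). For Lif it was drug replicate 1 at 2 h and replicate 2 of either 6 h group (adjusted p = 0.0521 to 0.0544). For Csf2rb it was vehicle replicate 2 or any drug replicate at 2 h, vehicle replicate 3 or drug replicate 2 at 6 h (adjusted p = 0.0546 to 0.0772). Between 6 and 12 h, 3 of the 6 genes passed, where 0.571% of all genes were called. The log2 response changed by -2.87 ± 0.47 for Il33 (adjusted p = 0.00694, edgeR) and by -2.74 ± 0.50 for Csf2rb (adjusted p = 0.0173, edgeR). It changed by -3.90 ± 0.60 for Il1rl1 (adjusted p = 0.00568, edgeR), which had no called difference at 6 h. Without either of the 2 drug libraries at 12 h none of the 3 passed, with adjusted p between 0.0532 and 0.165. Csf2rb also lost its call without drug replicate 3 at 6 h or either vehicle library at 12 h (adjusted p = 0.0526 to 0.0919). The larger folds of Il6 and Csf1 at 12 h than at 6 h did not pass this test. The change was 1.05 ± 0.66 for Il6 (adjusted p = 0.849, edgeR) and 0.65 ± 0.27 for Csf1 (adjusted p = 0.519, edgeR). For Lif it was -0.90 ± 0.55 (adjusted p = 0.833, edgeR).

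After 48 h without drug, Il33, Csf2rb, Lif, Csf1 and Il6 overlapped the 6 h vehicle libraries, and Il1rl1 lay below them. Few genes of any kind differed there, 0.205% of all genes called higher and 0.122% lower, so overlap is not particular to these genes. The share of all genes that overlapped was not counted. Il33 was at 32.0, 59.8 and 49.4 CPM in recovery, overlapping the 6 h vehicle libraries and above all 6 h drug libraries. Csf2rb was at 2.82, 2.16 and 2.12 CPM, again overlapping vehicle and above drug. Lif at 1.61, 6.56 and 5.27 CPM and Csf1 at 192, 274 and 233 CPM overlapped vehicle and lay below drug. Il6 was counted 0, 6 and 5 times, and the count of 0 allows a level of up to 0.242 CPM in that library. Il1rl1 was counted 1, 19 and 16 times, or 0.0805, 0.445 and 0.430 CPM, the lowest group of the 7. All 3 libraries lay below every vehicle library of any time.

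Against the 6 h drug group, all 6 genes passed: 2 were higher in recovery and 4 lower, where 11.6% of all genes were called higher and 13.9% lower. Il33 was higher by log2 1.86 ± 0.30 (adjusted p = 0.000266, edgeR) and Csf2rb by 2.35 ± 0.32 (adjusted p = 5.67e-05, edgeR). Il6 differed by -4.20 ± 0.49 (adjusted p = 1.56e-05, edgeR), Il1rl1 by -2.87 ± 0.41 (adjusted p = 0.000101, edgeR), Lif by -1.54 ± 0.35 (adjusted p = 0.00424, edgeR) and Csf1 by -1.11 ± 0.17 (adjusted p = 0.000221, edgeR). Fitted on the 2 groups alone, Lif (adjusted p = 0.145) and Csf1 (adjusted p = 0.075) missed the threshold. Against the 6 h vehicle group, which differs in age by the drug-free period, 0 of the 6 were called higher and 1 lower, where 0.205% and 0.122% of all genes were called. That gene was Il1rl1, 7.28-fold lower (log2 -2.86 ± 0.41, adjusted p = 0.0048, edgeR). Its call held without the recovery library of high mitochondrial share (log2 -2.59, adjusted p = 0.00549). It was lost with total-count scaling (adjusted p = 0.0507) and with a fit on the 2 groups alone (adjusted p = 1), in which no gene at all was called. The other 5 genes gave differences of -1.11 ± 0.54 for Il6, -0.36 ± 0.29 for Csf2rb, -0.35 ± 0.35 for Lif, -0.35 ± 0.17 for Csf1 and -0.06 ± 0.29 for Il33, with adjusted p from 0.524 to 0.995. A difference that missed the threshold does not show equal levels. Both recovery comparisons and the 6 h drug comparison share libraries.

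The vehicle groups themselves were not level over time. From 2 to 6 h all 6 genes were called lower, where 49.6% of all genes were called in either direction, 4443 higher and 4512 lower. Il1rl1 gave the largest difference, -2.52 ± 0.37, and Csf1 the smallest, -0.96 ± 0.17, with adjusted p of 0.000119 to 0.00151 over the 6 (edgeR). The 6 myoblast markers gave 0 higher and 2 lower over that interval. From 6 to 12 h 5 were called higher, where 35.4% of all genes were called in either direction, 3368 higher and 3025 lower. Csf2rb gave the largest of these, 2.90 ± 0.31, and Csf1 the smallest, 0.53 ± 0.19 (adjusted p = 0.0438, edgeR), while Lif at 0.69 ± 0.38 was not called (adjusted p = 0.163, edgeR). Over the same interval 4 of the 6 myoblast markers were called lower, their median log2 difference was -2.17, and their sum went from 2060 to 3560 CPM down to 554 to 579 CPM. Their part in the vehicle differences was not tested. The long-minus-short transcript value moved with these groups, from 0.66 to 1.16 in vehicle at 2 h, -1.4 to -0.65 at 6 h and 0.66 to 0.67 at 12 h. With an offset for transcript length the 2 to 6 h differences were -1.81 for Il1rl1, -1.43 for Csf2rb and -0.53 for Csf1, all still called. With the same offset the rise of Csf1 from 6 to 12 h was 0.16 and no longer passed (adjusted p = 0.427), and it was also lost without any one of the 5 vehicle libraries. Without vehicle replicate 1 at 12 h, the rise of Il6 was lost as well (adjusted p = 0.0737).

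The partner chains of these signals had their own levels. Il1rap, which encodes the chain that pairs with ST2, was at 30.7, 12.1 and 23.8 CPM in vehicle at 2, 6 and 12 h and at 22.1, 6.69 and 11.25 CPM with drug, none of which passed the test. Il6st, the gp130 chain, was at 56.0 CPM in vehicle and 99.8 CPM with drug at 6 h, a rise of log2 0.83 ± 0.27 (adjusted p = 0.0335, edgeR). Lifr, the partner of gp130 for LIF, was at 97.6 CPM in vehicle and 24.5 CPM with drug at 12 h, a fall of log2 -2.0 ± 0.46 (adjusted p = 0.00715, edgeR). Il6ra, the IL-6 binding chain, was at 28.4 CPM in vehicle and 10.3 CPM with drug at 12 h, which missed the threshold (adjusted p = 0.0566, edgeR). Csf1r, the receptor for CSF-1, reached at most 0.614 CPM in any library. Csf2ra, the chain that gives Csf2rb its GM-CSF specificity, had 0 to 22 reads in all per group and was not tested.

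The lists of related genes are given as counts, to be read against the shares of all genes called higher and lower, 3.01% and 1.51% at 2 h, 13% and 8.79% at 6 h, and 6.29% and 6.77% at 12 h. Of 10 listed ligands of the IL-6 family, 7 were testable, and 1 rose and 0 fell at 2 h, 2 rose and 2 fell at 6 h, and 1 rose and 0 fell at 12 h. The 2 that fell at 6 h were Ctf1, the cardiotrophin gene, by log2 -1.15 ± 0.28 (adjusted p = 0.00738, edgeR), and Clcf1, by -0.89 ± 0.25 (adjusted p = 0.0163, edgeR). Of the 7 gp130 family receptors, 0 passed at 2 h, 2 rose at 6 h and 1 fell at 12 h. The larger rise was that of Osmr, the oncostatin M receptor chain, by 2.08 ± 0.27 (adjusted p = 4.26e-05, edgeR).

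Of 10 listed IL-1 family ligands and antagonists 6 were testable, with 0 risen and 1 fallen at 2 h, 1 and 1 at 6 h, and 0 and 1 at 12 h (all genes: 3.01% and 1.51% at 2 h, 13% and 8.79% at 6 h, 6.29% and 6.77% at 12 h). Il1rn, which encodes the IL-1 receptor antagonist, rose at 6 h by log2 2.05 ± 0.26, and Il18bp, the IL-18 binding protein, fell at 2 h by -0.99 ± 0.25. Of 9 receptors 5 were testable, none passed at 2 or 6 h, and 2 fell at 12 h, Il1rl1 and Il18rap, a chain of the IL-18 receptor. Among 8 adaptors of IL-1 receptors, 2 rose at 6 h, Irak3 by 1.94 ± 0.56 and Tollip by 0.72 ± 0.17, both known as dampers of this signal, and 0 passed at 2 or 12 h. 

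Of 13 colony stimulating factors and receptors 7 were testable, with 2 risen and 0 fallen at 2 h, 2 and 2 at 6 h, and 1 and 2 at 12 h (all genes: 3.01% and 1.51% at 2 h, 13% and 8.79% at 6 h, 6.29% and 6.77% at 12 h). Csf2, which encodes GM-CSF, had 8 reads in all in the 2 h vehicle group and 82 in the 2 h drug group, a rise of log2 3.05 ± 0.71 (adjusted p = 0.0345, edgeR). It had enough counts to test only through that drug group, so the call is weak support for a rise. At 6 and 12 h it had 0 reads in the drug groups, and 0 and 1 in the vehicle groups. Il34, the other ligand of the CSF-1 receptor, rose at 2 h by 0.82 ± 0.22, close to the threshold (adjusted p = 0.0488, edgeR). The vehicle libraries ran from 7.37 to 14.8 CPM there, with the lowest value in the library with 15.8% mitochondrial reads. Il34 fell by -1.02 ± 0.22 at 6 h and -1.77 ± 0.29 at 12 h. Il34 and Csf1, which share that receptor, were thus on opposite sides of vehicle at 6 and 12 h.

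Of 12 feedback genes of cytokine signalling, 1 rose and 0 fell at 2 h, and 1 rose and 5 fell at both later times (all genes: 3.01% and 1.51% at 2 h, 13% and 8.79% at 6 h, 6.29% and 6.77% at 12 h). Pim1, a kinase gene induced by STAT proteins, rose at 2 h by log2 1.76 ± 0.18 (adjusted p = 3.37e-05, edgeR). Socs3, the inhibitor of gp130 signalling, fell at 6 h by -1.23 ± 0.34 (adjusted p = 0.0148, edgeR) and at 12 h by -2.18 ± 0.43 (adjusted p = 0.00229, edgeR). Socs1 and Socs5 were also lower at both times, while Socs2 rose by 0.91 ± 0.21 at 6 h and 1.89 ± 0.27 at 12 h. Of 8 JAK and STAT genes only Jak3 passed, lower at 6 h by log2 -1.03. Among 9 genes of cytokine mRNA stability, 2 fell at 6 h and none passed at 2 or 12 h. They were Zfp36, the tristetraprolin gene, by -1.25 ± 0.40 (adjusted p = 0.0345, edgeR), and Zc3h12a, the Regnase-1 gene, by -0.97 ± 0.18 (adjusted p = 0.00087, edgeR), both known to destabilise cytokine mRNAs. The median log2 difference at 12 h was -0.59 for the feedback genes, -0.35 for the JAK and STAT genes and -0.27 for the stability genes, beside 0.01 for all genes.

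**Figure D4:**
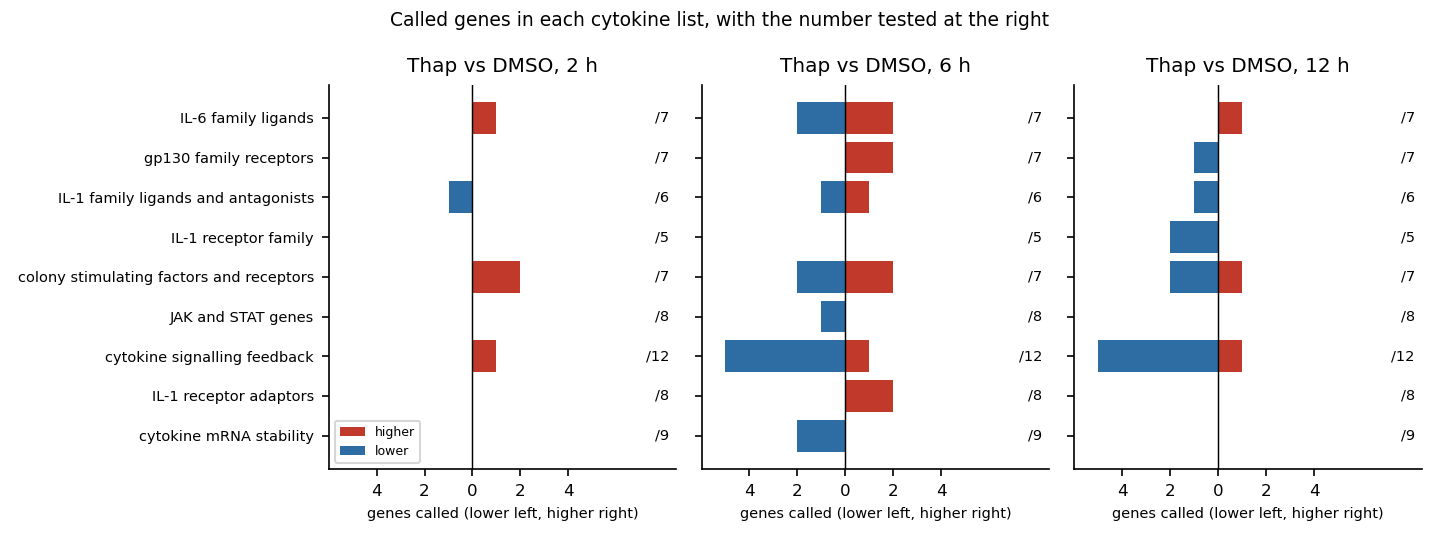
Number of genes called higher (right) and lower (left) in each list of cytokine genes at 2, 6 and 12 h of drug; bar length is the number of genes and the lists are given along the vertical axis, with the number tested at the right of each bar. The feedback list has 5 genes called lower at 6 and at 12 h.

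In recovery against 6 h of drug, the genes called higher and lower were 1 and 3 of the IL-6 family ligands, 1 and 1 of the gp130 receptors, of both IL-1 family lists and of the colony stimulating list, 2 and 0 of the JAK and STAT genes, 5 and 1 of the feedback genes, 1 and 2 of the adaptors and 2 and 0 of the stability genes, where 11.6% and 13.9% of all genes were called. Socs3 was higher in recovery by log2 1.11 ± 0.34 (adjusted p = 0.0233, edgeR), and Zfp36 by 1.2 ± 0.40 (adjusted p = 0.0373, edgeR). Osmr was lower by -1.26 ± 0.26 (adjusted p = 0.00203, edgeR), and Il1rn by -2.12. Against the 6 h vehicle group, Il1rl1 was the only gene of these lists that passed, where 0.205% of all genes were called higher and 0.122% lower.

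The genes whose levels ran most like those of each of the 6 were found by Pearson r of log2(CPM + 0.5) over the 19 libraries, among 11331 protein-coding genes. The libraries share their groups and composition, so r describes likeness and carries no test. Lif ran most like Klf6 (r = 0.982), Smad7 (0.968) and Csrnp1 (0.952), and the mean level of Klf6 went from 344 to 1117 CPM at 2 h. Il6 ran most like Ero1lb (0.967), Sel1l (0.961) and Ttc17 (0.957). Sel1l, a component of the degradation machinery of the endoplasmic reticulum, went from 122 CPM in vehicle to 931 CPM with drug at 12 h. Csf1 ran most like Dchs2 (0.965), Sec16a (0.962) and D10Wsu102e (0.962). Il33 ran most like Enpp1 (0.976), Arhgap18 (0.965) and Angptl2 (0.964), and Angptl2 went from 289 to 27.8 CPM at 12 h. Il1rl1 was closest to Lin7c (0.949), B4galt1 (0.938) and Fst (0.918), and Csf2rb to Ltbp2 (0.954), Rrm1 (0.945) and Hspa12a (0.931).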

How the data were processed

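Each deposited file gives the raw read count of every gene in 1 library, and its 5 closing lines of unassigned reads were left out of library sizes and tests. Per the submitters' processing notes, the authors used Trim Galore, STAR 2.5.3a, bedtools 2.31.0, DESeq2 and the build mm10; which program counted the reads, with what strand setting and on what annotation was not given in the sources used here. Ambiguous reads came to 6.92 to 10.59% of gene reads. Of 55401 gene identifiers, 55141 matched GENCODE M21.

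Counts were TMM-scaled, filtered with filterByExpr by group and fitted in 1 quasi-likelihood model over 7 groups with edgeR 4.0.16 (limma 3.58.1, R 4.3.3); DESeq2 1.42.0 was an alternative. The code was tested on simulated data. Depth was 17305962 to 40964140 gene reads a library, and floors of 3 counts cover counting error only. Every pair of replicates differed by more than sampling noise. Promoters came from RefSeq (GRCm38.p6) and were searched with Python 3.11.15. Csf2rb had no entry there.

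The 6 genes are named in every comparison. From each list up to 3 called genes in each direction with the largest log2 difference could be named, as well as receptor partners, the copy Csf2rb2 and the 3 protein-coding genes of highest r, with a mean of at least 1 CPM. The genes and lists were chosen with earlier results of these data known. Alternatives were other scalings and filters, a transcript length offset, a replicate block, fits on the groups compared, and leaving out libraries.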

Additional observations from a re-analysis of the deposited data

Results flagged for a closer look

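In 6 cases the response of a gene to thapsigargin differed between exposure times by a direct test of the difference (edgeR, adjusted p under 0.05). Between 2 and 6 h the log2 response changed by 2.65 for Il6, -2.15 for Lif and -1.71 for Csf2rb. Between 6 and 12 h it changed by -2.87 for Il33, -3.9 for Il1rl1 and -2.74 for Csf2rb. The vehicle levels of these genes also moved between the times, so each change is one of the drug-to-vehicle ratio and not of the drug group alone.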

How the results depend on the processing

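The number of the 6 genes called was 1 at 2 h and became 2 with RLE size factors, 3 with a filter of at least 1 CPM in at least 2 libraries, 3 with the transcript length offset, 4 with only the groups compared, 5 with DESeq2 and 3 without the 2 libraries of high mitochondrial share, an alternative chosen after seeing the data. Total-count scaling gave 3 at 6 h in place of 5, 0 for recovery against 6 h vehicle in place of 1, and 1 in each of the 2 tests between response times in place of 3. With no filter on low counts 4 were called at 6 h. The test between 2 and 6 h responses gave 2 with no filter, 2 with the length offset and 4 without the 2 libraries just named, and that between 6 and 12 h gave 2 with the length offset, 2 with only the groups compared and 4 with DESeq2. A fit on only the groups compared also gave 0 for recovery against 6 h vehicle. Leaving out single libraries gave 1 to 2 at 2 h, 4 to 5 at 6 h, 1 to 3 and 0 to 3 for the 2 tests between response times, and 3 to 4 from 6 to 12 h of vehicle. The cause was not tested.

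Signs turned in 2 comparisons, for differences that passed no test. Il1rl1 at 6 h was -0.0188 with no filter on low counts, -0.0573 with the length offset, and -0.216 to 0.2998 in fits without 1 library. In recovery against 6 h vehicle, Il33 ran from -0.273 to 0.151 in fits without 1 library and came to 0.13 with both libraries of high mitochondrial share left out, and Lif ran from -0.704 to 0.0158 in fits without 1 library. Over all single-gene alternatives, 753 kept their direction and side of the threshold, 48 lost a call, 17 gained one and 10 turned sign.

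Whether replicate numbers pair the samples could not be settled. Of 52 same-numbered pairs 4 correlated above 0.1, with r from -0.641 to 0.621. A pair with different numbers, drug replicate 1 at 6 h and recovery replicate 2, reached 0.722. These r values are of deviations from means of 2 or 3 libraries, which are tied to each other, so they cannot exclude pairing. With the replicate block, the call of Csf1 from 6 to 12 h of vehicle was lost (0.51, adjusted p = 0.0826, edgeR), no other call of the 6 genes changed, and 602 genes were called at 2 h instead of 816. Over all genes, calls at 2 h were 518 with total-count scaling, 2167 with only the groups compared and 1693 by DESeq2, and ran from 319 to 667 with 1 library left out. At 12 h they rose from 2356 to 9335 with only the groups compared. For recovery against 6 h vehicle they went from 59 to 17 with total-count scaling, 0 with only the groups compared and 424 with DESeq2. Depth limits Il6 and Il1rl1 in recovery, Il6 in vehicle at 6 h, Il1rl1 with drug at 12 h and Csf2rb with drug at 6 and 12 h, each at 21 counts or fewer a library.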

Other observations

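Il7r, a cytokine receptor gene held in the list of blood cell markers, was called higher with thapsigargin at all 3 times, from 0.121 to 0.780 CPM at 2 h, from 0 to 0.2995 CPM at 6 h and from 0.0203 to 0.905 CPM at 12 h. It was the only gene of that list with enough counts to test, and its vehicle levels alone would not have met that requirement. Il7r was thus testable through libraries where it was high. Its calls are weak support for a rise, and the differences rest on few vehicle reads.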
